A study of Homo sapiens with 12 samples.

Results

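The 9 genes described here are sensors of microbial and misplaced nucleic acids and of bacterial products, with the proteins closest to them. They are the Toll-like receptors TLR2, TLR3 and TLR4, the cytosolic DNA sensor cGAS (listed as MB21D1) with its partner STING (TMEM173), and the inflammasome genes NLRP3, PYCARD, CASP1 and CASP4. They were chosen by name, and all 9 were found among the 27106 genes of the table. RNA was from IMR90 hTERT cells, human lung fibroblasts kept dividing by telomerase, in which tamoxifen switches on the oncogenic fusion RasERT2 and the cells become senescent. In the shIL1R groups a hairpin targeted the interleukin-1 receptor, in the shScr groups the hairpin was a scramble, and both were induced with doxycycline (0.5 ug/ml). Each was sampled at day 0 (growing), day 4 (onset of secretion of inflammatory factors) and day 10 (senescent), with 2 libraries per group and 12 in all. Tamoxifen was used at 200 nM with ethanol as its control, and all 6 groups share hTERT, the Ras fusion and doxycycline. The cells are 1 line, the study used 2 hairpins against the receptor without stating which library carries which, and the labels do not say that replicates came from separate cultures, so p-values measure only the spread between these samples.

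Toll-like receptors sit in the membranes of the cell surface and of endosomes and signal through the adaptors MYD88 and TICAM1 to NF-kB and interferon genes. cGAS binds DNA in the cytosol and makes a cyclic dinucleotide that activates STING, which is known as a driver of inflammatory gene expression in senescent fibroblasts. Inflammasomes join a sensor such as NLRP3 through the adaptor PYCARD (ASC) to caspase-1, which matures interleukin-1 beta, whereas caspase-4 binds bacterial lipopolysaccharide itself.

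In shScr cells at day 10, NLRP3 and CASP4 were higher than at day 0 and MB21D1 and CASP1 were lower, and TLR2 was nearly undetected everywhere else. In shIL1R cells at day 10, CASP4 was again higher than at day 0 and MB21D1 lower. Between the hairpins at day 10, CASP1 was higher in shIL1R cells, and TLR2 had 4 reads in them, against 67 in shScr cells. Per length of merged exons, the mean level over the 12 libraries was 527 normalized counts per kilobase for CASP4 and 504 for TMEM173. On the same scale it was 148 for CASP1, 40.4 for PYCARD, 20.5 for MB21D1, 5.41 for NLRP3, 1.27 for TLR2, 0.315 for TLR3 and 0.00636 for TLR4. Levels below are the normalized counts deposited by the authors, and changes are log2 fold changes of the normalized count plus 1 with their SE. A gene was called where the limma p, adjusted after Benjamini and Hochberg over all 13924 genes tested, was below 0.05.

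The following 3 promoters are shown because they belong to the tested sensor genes whose levels were higher at day 10 than at day 0 in both shScr libraries, with motif matches in capitals. They run from 250 bases before to 50 bases after the start of the RefSeq gene, in GRCh38.p14, 5′ to 3′ on the gene's strand. TLR2 is on the plus strand at chr4:153684030-153684329, NLRP3 on the plus strand at chr1:247415923-247416222 and CASP4 on the minus strand at chr11:104968525-104968824.
TLR2: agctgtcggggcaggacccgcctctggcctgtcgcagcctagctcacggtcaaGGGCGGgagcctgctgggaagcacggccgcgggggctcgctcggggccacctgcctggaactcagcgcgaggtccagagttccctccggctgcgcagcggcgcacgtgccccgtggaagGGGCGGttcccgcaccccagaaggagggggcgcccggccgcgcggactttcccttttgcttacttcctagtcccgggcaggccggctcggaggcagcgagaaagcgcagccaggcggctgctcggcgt
NLRP3: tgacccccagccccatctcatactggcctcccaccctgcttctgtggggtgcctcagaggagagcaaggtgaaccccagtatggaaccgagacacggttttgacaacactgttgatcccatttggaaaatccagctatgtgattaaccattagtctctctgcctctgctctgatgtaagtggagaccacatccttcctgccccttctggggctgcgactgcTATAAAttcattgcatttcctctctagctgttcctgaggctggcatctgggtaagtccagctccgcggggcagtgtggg
CASP4: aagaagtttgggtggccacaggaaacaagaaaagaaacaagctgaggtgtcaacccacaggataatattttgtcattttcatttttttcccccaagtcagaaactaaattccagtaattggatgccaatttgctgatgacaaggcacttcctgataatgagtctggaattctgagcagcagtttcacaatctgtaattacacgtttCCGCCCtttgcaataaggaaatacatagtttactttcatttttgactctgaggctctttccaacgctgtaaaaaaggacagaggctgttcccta
The capitals mark 2 GC boxes (GGGCGG) in TLR2, 1 TATA box (TATAAA) in NLRP3 and 1 GC box on the opposite strand (CCGCCC) in CASP4. Of all 35116 RefSeq promoters of this length, 45% held a GC box and 11.5% a TATA box on either strand. The kappaB consensus (in 14% of promoters), the interferon-stimulated response element (2 copies of TTTC with 2 bases between them, 3.57%), the AP-1 site TGANTCA (7.71%) and the C/EBP site TTGCNNAA (10.5%) were searched on both strands too, and the 3 windows hold none of these letters. Among these 3, TLR2 has the most G and C, with 72.7%, against 54% for NLRP3, 39.7% for CASP4 and a median of 58.7% over all promoters. The promoter of the sensor gene PYCARD, not shown, is close to TLR2 with 72%. RefSeq promoters matched 6 of the 9 sensor genes, and CASP1, MB21D1 and TMEM173 were not matched.

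Libraries held 24140324 to 30127727 reads, and 1 read equals 0.835 to 1.20 normalized counts. IL1R1, the target of the hairpin, did not overlap between hairpins on any day, with log2 fold changes in shIL1R against shScr cells of −1.54 ± 0.42 at day 0 (limma adjusted p = 0.281, not called), −3.27 ± 0.42 at day 4 (0.0205) and −2.28 ± 0.42 at day 10 (0.0102). Of all tested genes, 51.4% did not overlap between hairpins at day 0, 53.1% at day 4 and 49.0% at day 10. All 10 fibroblast markers were present, and at day 10 against day 0, 2 were higher and 6 lower in shIL1R cells and 1 was higher and 6 lower in shScr cells. Beside these and the marker counts that follow, 60.3% of all tested genes were called between these days in shIL1R cells and 63.8% in shScr cells. Of 12 leukocyte markers 4 were tested, and 3 (CD68, FCER1G and LAPTM5) were higher at day 10 than at day 0 under both hairpins, while TYROBP, AIF1 and SPI1 stayed between 0 and 1.18 normalized counts. FCER1G and LAPTM5 passed the filter on low values through libraries later than day 0, so their calls are a description. Of 7 endothelial markers 5 were tested, and 3 were higher and 1 lower at day 10 than at day 0 under both hairpins. TIE1 was higher by 3.59 in shIL1R cells and 3.81 in shScr cells. TEK was the lower one, with −0.82 in shIL1R cells and −0.62 in shScr cells, and CDH5 was at 0 throughout. The 7 summed to 2529 to 3282 normalized counts at day 0 and 2036 to 2179 at day 10 in shIL1R cells. In shScr cells the sums were 1685 to 1825 at day 0 and 1574 to 1896 at day 10. Replicate 2 of shIL1R day 10 stands apart from its partner: it lay at 45.9 and replicate 1 at 77.2 on the first principal component, and its fibroblast markers summed to 307477 normalized counts, against 135511 in replicate 1. The shScr day 10 libraries lay at 90.5 and 89.2 there, with marker sums of 125369 to 135512. Between shIL1R and shScr at day 10, with this replicate 2 of shIL1R included, 3 of the 10 fibroblast markers were called higher and 0 lower, beside 9.21% of all tested genes called. The part of the marker levels in the results was not tested. In such bulk RNA, fewer cells that express a gene and less of its RNA per cell cannot be told apart.

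**Figure D1:**
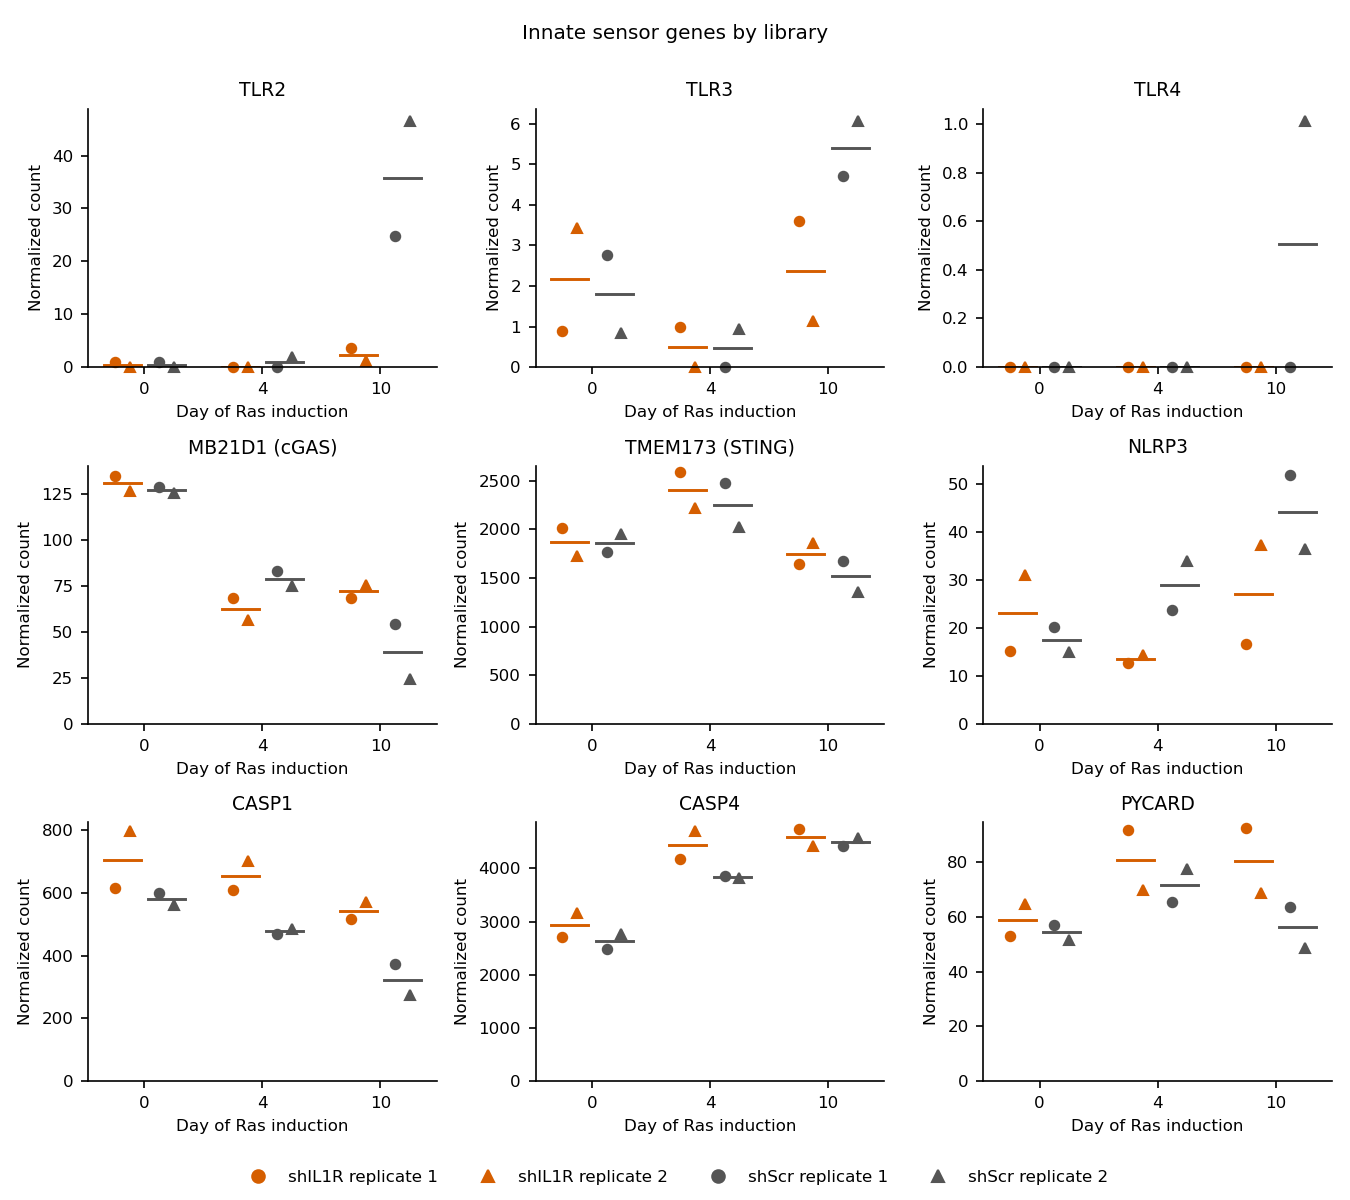
Normalized count of each sensor gene (y axis, from 0) by day of Ras induction (x axis). Points are the 12 libraries, orange for shIL1R and grey for shScr, with circles for replicate 1 and triangles for replicate 2, and bars are means of 2 libraries. TLR2 is high only in the shScr day 10 libraries (24.8 and 46.6), CASP4 is higher at days 4 and 10 under both hairpins, and MB21D1 is lower.

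Of the 9 genes, 7 passed the filter, which asked for 10 or more normalized counts in 2 or more libraries, and TLR3 and TLR4 did not. TLR2 passed only through the shScr day 10 libraries in which it was high and so had to differ in the comparisons with them. Its 3 calls there, and counts over the 7, are a description and support nothing. In shIL1R cells 2 of them were called at day 4 against day 0 (CASP4 higher, MB21D1 lower), where 40.4% of all tested genes were called. The same comparison at day 10 called 2 (CASP4 higher, MB21D1 lower), beside 60.3% of all genes, and day 10 against day 4 called 1 (TMEM173 lower), beside 35.9%. In shScr cells 1 was called at day 4 against day 0 (CASP4 higher), beside 38.3% of all genes. There day 10 against day 0 called 5, beside 63.8%, and day 10 against day 4 called 4 (TLR2 higher, with MB21D1, TMEM173 and CASP1 lower), beside 44.1%. Comparisons with the same baseline share its libraries. Between shIL1R and shScr, 0 sensor genes were called at day 0 (0.0646% of all genes), 0 at day 4 (0.280%), and 2 at day 10 (9.21%). The difference between hairpins of the change from day 0, the interaction, was called for 0 sensor genes at day 4 (0.0287% of all genes) and 0 at day 10 (2.41%). At an unadjusted limma p below 0.05 there were 0 sensor genes between hairpins at day 0 (8.52% of all genes) and 2 at day 4, NLRP3 and CASP1 (18.2%). For the interactions there were 0 at day 4 (11.0%) and 1 at day 10, TLR2 (19.2%). The edgeR and DESeq2 fits called 0 in each of those 4 comparisons. DESeq2, however, gave no adjusted p for TLR2 in any of the 4, nor for NLRP3 between hairpins at day 4 and in the interaction at day 4.

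**Figure D2:**
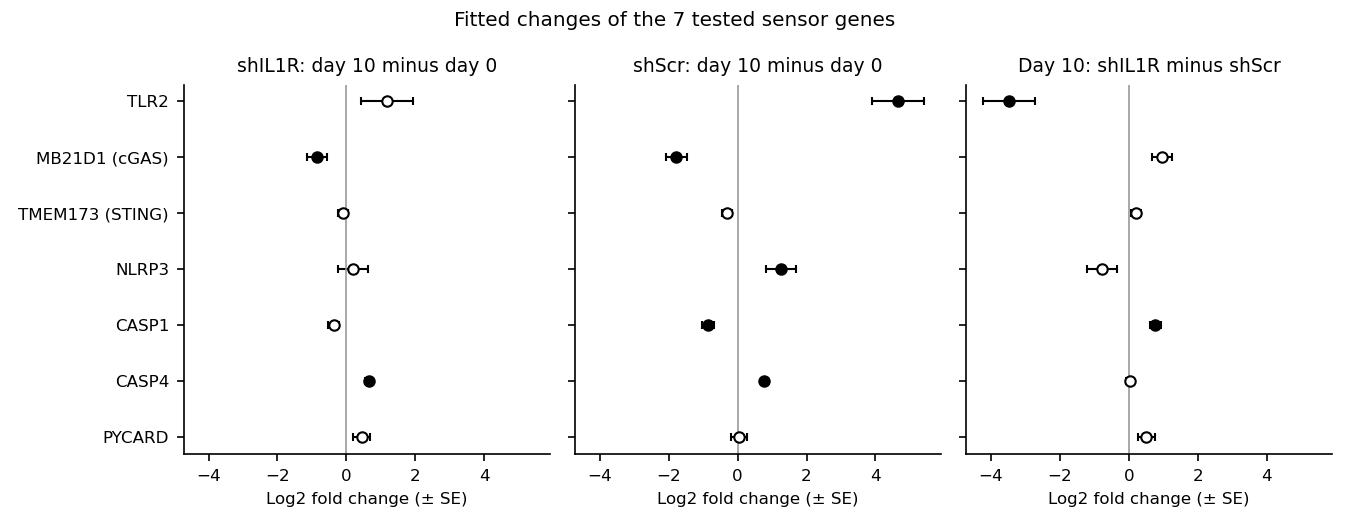
Log2 fold change with its SE (x axis) of the 7 tested sensor genes (y axis), for day 10 against day 0 in shIL1R cells, for the same days in shScr cells, and for shIL1R against shScr at day 10. Filled points were called (limma adjusted p below 0.05) and open points were not. TLR2, which had to differ where shScr day 10 is compared, runs from 4.66 between the days in shScr cells to −3.48 between the hairpins, while CASP4 is filled between the days and at 0.027 between the hairpins.

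TLR2, the receptor for bacterial lipoproteins, was almost silent except in senescent shScr cells. The shIL1R libraries held 0.898 and 0 normalized counts on day 0, none on day 4, and 3.60 with 1.13 on day 10. The shScr libraries gave 0.919 and 0 on day 0, then 0 with 1.89 on day 4, then 24.8 with 46.6 on day 10. Both shScr day 10 libraries lie above the other 10 libraries, whose groups overlap with their neighbours in the order of means. In reads, the shScr day 10 libraries held 67 (21 and 46), against 1 at day 0. The normalized ratio of 83.5 is a description, because TLR2 passed the filter through these libraries.

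The fitted log2 fold change in shScr cells at day 10 was 4.66 ± 0.75 against day 0 and 4.36 ± 0.75 against day 4, given without a p because the gene entered the fit through these libraries. With baselines of at most 1.89 normalized counts this size depends on the pseudocount, and it ran from 2.85 to 6.35 over the settings tried for day 0. In shIL1R cells the change from day 0 to day 10 was 1.18 ± 0.75 and was not called (adjusted p = 0.195). At day 10 shIL1R cells held 4 TLR2 reads, against 67 in shScr cells, a normalized ratio of 0.0637. The fitted log2 fold change of shIL1R against shScr at day 10 was −3.48 ± 0.75 and ran from −4.04 to −2.43 over the settings tried. It is a description for the same reason.

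TLR2 alone among the tested sensor genes spanned at least 2 log2 units over the 6 group means, with 5.13. Of the 11311 genes averaging 50 or more normalized counts, the 3 whose centred group means lay closest to those of TLR2 were CXCL2 (root mean square difference 0.237 on the log2 scale over the 6 groups), MRGPRX3 (0.276) and CXCL3 (0.313). CXCL2 and CXCL3 encode neutrophil-attracting chemokines and MRGPRX3 a receptor of the Mas-related family. CXCL2 had 114 and 7.90 normalized counts in the shIL1R day 10 libraries, against 266 and 353 in the shScr day 10 libraries. As CXCL2 was picked for its likeness to TLR2, this difference follows from the choice and is a description. Of the markers of leukocytes, a cell type rich in TLR2, LAPTM5 had 37.2 and 6.77 in shIL1R cells at day 10, against 142 and 120 in shScr cells, a difference that was not called (limma adjusted p = 0.0691). The other tested markers were not called between the hairpins at day 10 either. Their log2 fold changes of shIL1R against shScr were −0.21 for CD68 and 0.16 for CSF1R, whose libraries overlap, and −0.33 for FCER1G. At day 0 LAPTM5 had 3.59 and 0 in shIL1R cells and 1.84 and 0 in shScr cells. At day 10 it was higher than at day 0 by 3.01 ± 0.91 in shIL1R cells and by 6.28 ± 0.91 in shScr cells. These changes are a description without a p, because LAPTM5 passed the filter of 10 normalized counts through libraries later than day 0. CD68 was higher by 1.29 in shIL1R cells (limma adjusted p = 3.21e-05) and 1.43 in shScr cells (1.27e-05). FCER1G, with day 0 means of 2.60 in shIL1R cells and 2.21 in shScr cells, was higher by 2.28 in shIL1R cells and 2.62 in shScr cells. Its changes are a description for the same reason as those of LAPTM5. CSF1R was called between these days under neither hairpin. The 12 leukocyte markers, of which 4 were tested, summed to 5835 to 8567 normalized counts in shIL1R cells at day 10 and to 7482 to 9130 in shScr cells, nearly all of it CD68. PTPRC, which encodes the pan-leukocyte antigen CD45, stayed between 0 and 3.04 in all 12 libraries. The part of leukocyte-marker RNA in the TLR2 levels was not tested.

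TLR3, the endosomal sensor of long RNA duplexes, was barely detected. It had 3.60 and 1.13 normalized counts in shIL1R cells at day 10, against 4.72 and 6.08 in shScr cells, and 0 to 3.44 in the 8 other libraries. In reads these were 4 in shIL1R cells and 10 in shScr cells, a normalized ratio of 0.427 with an exact 95% interval of 0.0977 to 1.48. The day 10 libraries of the hairpins do not overlap, as for 49.0% of all tested genes, and that interval includes 1. TLR4, the lipopolysaccharide receptor, had 1 read in the whole study, in replicate 2 of shScr day 10. Its co-receptor LY96 (MD-2) was present, with 175 and 161 normalized counts in shIL1R cells at day 10 and 151 and 165 in shScr cells, and overlapped between the hairpins.

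Of 12 further family members and co-receptors 5 were tested: TLR5, TLR6, TLR9, LY96 and UNC93B1. In shIL1R cells at day 10, 2 were higher and 1 lower than at day 0, and the same counts were found in shScr cells, beside 60.3% of all genes called in shIL1R cells and 63.8% in shScr cells. Besides UNC93B1, the higher gene was TLR9 in shIL1R cells (2.68 ± 1.08), which lost its call in 10 of 20 settings. In shScr cells it was LY96 (0.47 ± 0.18), which lost its call in 8 of 21. UNC93B1, which carries nucleic acid receptors to endosomes, was higher at day 10 than at day 0 in shIL1R cells (0.51 ± 0.11, limma adjusted p = 0.00243) and in shScr cells (0.75 ± 0.11, 0.000156). TLR6, a partner of TLR2, was lower at day 10 than at day 0 in shScr cells (−1.06 ± 0.33, adjusted p = 0.0161), which was no longer called without shScr day 0 replicate 1 or without either shScr day 10 library (highest adjusted p = 0.0883). Its change in shIL1R cells (−0.87 ± 0.33, adjusted p = 0.0416) lost its call in 13 of 21 settings. Without replicate 2 of shIL1R day 10, 1 of the 5 was higher and 1 lower in shIL1R cells. The median log2 fold change of the 5 was 0.28 in shIL1R cells and 0.011 in shScr cells, beside 0.012 and 0.0057 over all genes.

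Below the receptors, 14 of 15 adaptors and kinases were tested. By day 10, against day 0, 5 were higher and 3 lower in shIL1R cells (median 0.19), and 6 were higher and 2 lower in shScr cells (median 0.14). That is 8 of 14 under each hairpin, beside 60.3% of all genes called in shIL1R cells and 63.8% in shScr cells. TICAM1 (TRIF), the adaptor of TLR3, was higher at day 10 under both hairpins, by 0.95 ± 0.14 in shIL1R cells (limma adjusted p = 0.00015) and 1.20 ± 0.14 in shScr cells (2.33e-05). TOLLIP, an inhibitor of the pathway, was higher by 1.11 in shIL1R cells (1.14e-06) and 1.30 in shScr cells (2.64e-07).

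Between the hairpins at day 10, 1 adaptor or kinase was higher and 3 were lower in shIL1R cells (median −0.15, beside −0.0034 over all genes, of which 9.21% were called), and 0 and 2 without replicate 2 of shIL1R day 10. IRAK3 (IRAK-M), a kinase relative that restrains Toll-like and interleukin-1 receptor signalling, had 112 and 88.0 normalized counts in shIL1R cells, against 496 and 462 in shScr cells. At day 0 it had 577 and 630.0 in shIL1R cells, against 520.0 and 502 in shScr cells, and at day 4 all 4 libraries lay between 148 and 190.2. At day 10 every shIL1R library was below every shScr library and below all libraries of days 0 and 4. Of all tested genes, 49.0% did not overlap between the hairpins at day 10, and the share that part between days was not counted. The log2 difference of IRAK3 was −2.26 ± 0.15 (limma adjusted p = 3.76e-05), and the interaction was −2.50 ± 0.21 (0.000507). Both IRAK3 calls held in every setting tried, with adjusted p up to 0.015 for the difference and 0.00665 for the interaction.

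TRAF3, which links the receptors to interferon induction, had 2163 and 2211 normalized counts in shIL1R cells at day 10, against 3209 and 3253 in shScr cells (−0.56 ± 0.079, limma adjusted p = 0.00339). The TRAF3 call was lost when only the compared groups were fitted (0.092). IRAK2, a kinase that sustains NF-kB signalling, was at 1663 and 969.5 in shIL1R cells, against 3305 and 3188 in shScr cells (−1.35 ± 0.31, adjusted p = 0.0255). IRAK4, the kinase that starts the cascade, was at 367 and 406 in shIL1R cells, against 283 and 245 in shScr cells (0.55 ± 0.11, adjusted p = 0.0152). The IRAK2 and IRAK4 libraries of the hairpins do not overlap, but without replicate 2 of shIL1R day 10 IRAK2 gave −0.96 (0.114) and IRAK4 0.48 (0.0556), and without replicate 2 of shScr day 10 the adjusted p was 0.158 for IRAK2 and 0.142 for IRAK4. Fitting only the compared groups also ended both calls (0.0732 for IRAK2, 0.222 for IRAK4), as did leaving out shScr day 10 replicate 1 for IRAK2 (0.0801).

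**Figure D3:**
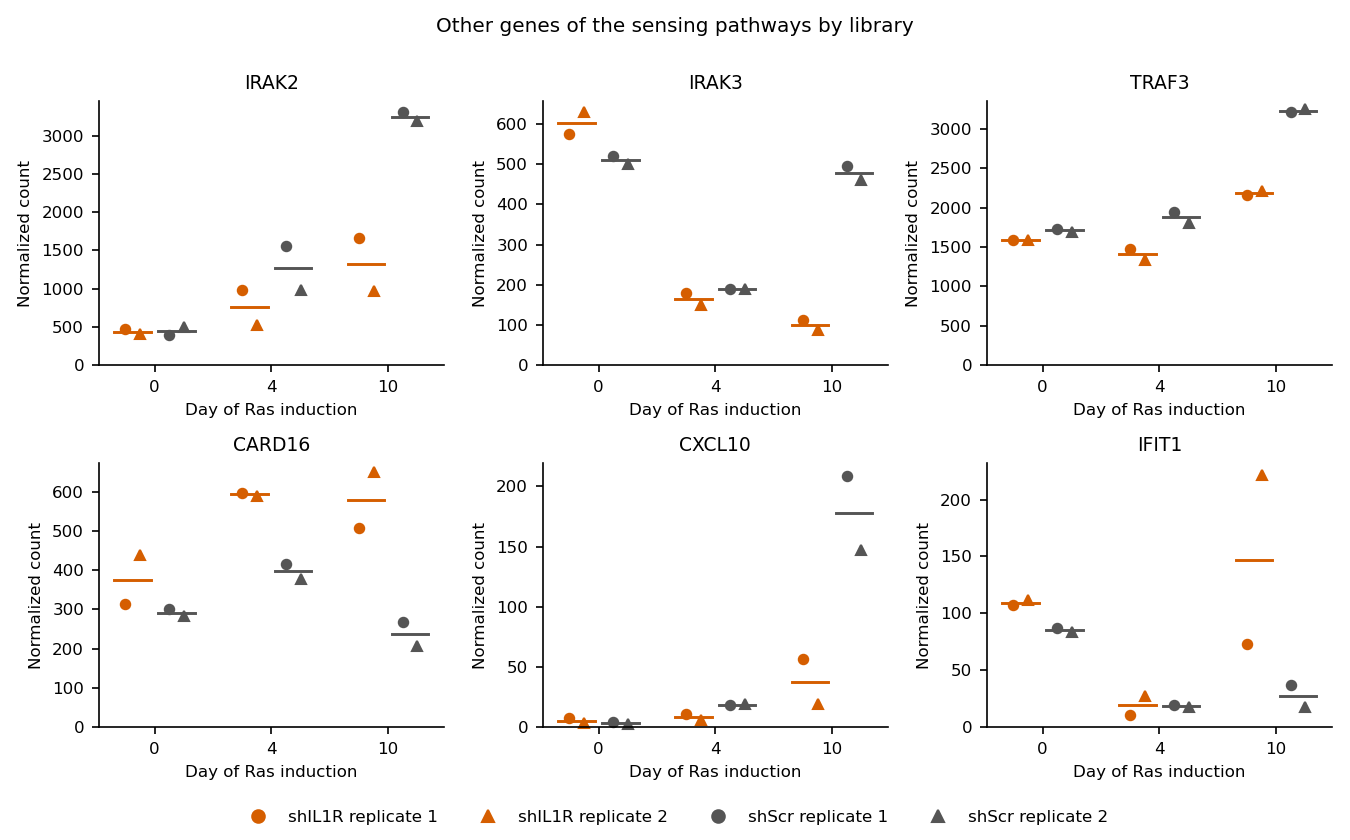
Normalized count (y axis, from 0) by day of Ras induction (x axis) of 6 genes of the sensing pathways that differed between the hairpins at day 10. Points are libraries, orange for shIL1R and grey for shScr, circles for replicate 1 and triangles for replicate 2, with bars at means of 2 libraries. IRAK3 stands at 112 and 88.0 in shIL1R cells and 496 and 462 in shScr cells at day 10, and IFIT1 is highest in replicate 2 of shIL1R day 10 (221).

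MB21D1 (cGAS) was lower after Ras induction under both hairpins, but in shScr cells the change from day 0 to day 4 was not called (−0.68 ± 0.30, limma adjusted p = 0.0944). The shIL1R libraries gave 135 and 127 normalized counts on day 0, then 68.4 with 56.5 on day 4, then 68.3 with 75.6 on day 10. Those of shScr were 129 and 125 on day 0, then 82.8 with 74.8 on day 4, then 54.3 with 24.3 on day 10. All day 4 and day 10 libraries lie below all 4 day 0 libraries, and at day 10 the shScr libraries lie below the shIL1R libraries. The share of all tested genes that part in this way between days was not counted, so the separation by day is a description. Between the hairpins at day 10, 49.0% of all tested genes did not overlap in either direction.

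In shIL1R cells MB21D1 was lower at day 4 than at day 0, with a log2 fold change of −1.06 ± 0.30 (limma adjusted p = 0.0162), and at day 10 than at day 0 with −0.85 ± 0.30 (0.0288). Each of these calls rested on single libraries: leaving out either shIL1R day 0 library or 1 later library raised the adjusted p to 0.0626 to 0.111, and for day 10 it was 0.0501 without a filter. In shScr cells it was lower at day 10, with a log2 fold change of −1.77 ± 0.30 against day 0 (0.000342), which held in every setting tried (highest adjusted p = 0.00392). Against day 4 the shScr change was −1.09 ± 0.30 (0.0127), and it was −0.53 without shScr day 10 replicate 2 (0.0896) and −1.02 without shScr day 4 replicate 1 (0.0673). The difference between shIL1R and shScr cells at day 10, 0.96 ± 0.30 with a 95% interval of 0.30 to 1.62, was not called (0.0684), and it was 1.53 without replicate 1 of shScr day 10 (0.0105) and 0.40 without replicate 2 (0.44).

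TMEM173 (STING), the membrane protein that cGAS activates, was lower at day 10 than at day 4 under both hairpins. Normalized counts in the shIL1R libraries were 2012 and 1725 on day 0, then 2593 with 2215 on day 4, then 1644 with 1857 on day 10. The shScr libraries gave 1771 and 1948 on day 0, then 2479 with 2022 on day 4, then 1678 with 1355 on day 10. Day 4 libraries were the highest under both hairpins. TMEM173 was lower at day 10 than at day 4 in shIL1R cells (−0.46 ± 0.14, limma adjusted p = 0.0265) and in shScr cells (−0.57 ± 0.14, 0.00723), and no other comparison of it was called. In shIL1R cells at day 4 against day 0 it gave 0.36 ± 0.14 (0.0592), which was called without replicate 2 (0.0419) or replicate 1 (0.0418) of shIL1R day 10, libraries outside that comparison. The shIL1R call was lost without replicate 1 of shIL1R day 4 (0.172) or of shIL1R day 10 (0.101) and when only the compared groups were fitted (0.0731), and the shScr call without shScr day 4 replicate 1 (0.0715) or shScr day 10 replicate 2 (0.0716). Between the hairpins at day 10 the difference was 0.21, with a 95% interval of −0.096 to 0.52.

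Within a library, which removes the scaling between libraries, TMEM173 exceeded MB21D1 in normalized counts by 14.9 and 13.6 times in shIL1R cells and 13.8 and 15.6 times in shScr cells at day 0. At day 4 the ratio was 37.9 and 39.2 in shIL1R cells and 30.0 and 27.0 in shScr cells. At day 10 it was 24.1 and 24.6 in shIL1R cells and 30.9 and 55.8 in shScr cells. All libraries after induction thus lie above all 4 day 0 libraries in this ratio, which is given as a description.

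Among 12 further DNA sensors and nucleases 10 were tested. Compared with day 0, day 10 had 3 higher and 4 lower in shIL1R cells (median −0.10), and 3 higher and 5 lower in shScr cells (median −0.50), against 60.3% of all genes in shIL1R cells and 63.8% in shScr cells being called. RNASEH2A, the catalytic subunit of the nuclease that cuts RNA out of DNA, was lower at day 10, with a log2 fold change of −2.28 ± 0.18 in shIL1R cells (limma adjusted p = 1.67e-06) and −3.31 ± 0.18 in shScr cells (9.26e-08). Its partner subunit RNASEH2B was lower, with a log2 fold change of −1.68 ± 0.20 in shIL1R cells (3.55e-05) and −1.90 ± 0.20 in shScr cells (1.15e-05). ENPP1, which degrades the cyclic dinucleotide made by cGAS, was lower, with a log2 fold change of −1.35 ± 0.12 in shIL1R cells (4.04e-06) and −1.73 ± 0.12 in shScr cells (5.16e-07). DNASE2, the lysosomal DNA nuclease, was higher by 1.24 ± 0.15 in shIL1R cells (3.95e-05) and 0.93 ± 0.15 in shScr cells (0.000296). These 8 calls held in every setting tried. AIM2, a cytosolic DNA sensor that forms an inflammasome of its own, had 1 read in the study.

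Of 12 genes downstream of STING and of the RNA adaptor MAVS 10 were tested. At day 10 against day 0, 5 were higher and 0 lower in shIL1R cells (median 0.39), and 4 were higher and 2 lower in shScr cells (median 0.32). Of all genes, 60.3% in shIL1R cells and 63.8% in shScr cells were called. Without replicate 2 of shIL1R day 10 the shIL1R counts were 4 and 1. IFNB1, which encodes interferon beta, was at 0 in all 12 libraries. CXCL10, a lymphocyte-attracting chemokine, had 56.4 and 19.2 normalized counts in shIL1R cells at day 10, against 209 and 147 in shScr cells (−2.37 ± 0.53, limma adjusted p = 0.0215). IFIT1, an interferon-induced binder of foreign RNA, had 73.1 and 221 in shIL1R cells, against 36.6 and 17.2 in shScr cells (2.29 ± 0.53, adjusted p = 0.0243). The 2 genes thus differed in opposite directions. Without replicate 2 of shIL1R day 10 CXCL10 gave −1.62 (0.0995) and IFIT1 1.50 (0.11), and both calls were also lost without replicate 2 of shScr day 10 (0.112 and 0.22) and when only the compared groups were fitted (0.0963 and 0.152). The CXCL10 call was lost without replicate 1 of shScr day 10 too (0.0888). They are the only 2 genes of this list called between the hairpins at day 10.

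For RNA, which the cytosolic helicases sense, 11 of 12 genes were tested. At day 10 against day 0, 5 were higher and 2 lower in shIL1R cells (median 0.47), and 5 were higher and 3 lower in shScr cells (median 0.57), where 60.3% of all genes in shIL1R cells and 63.8% in shScr cells were called. IFIH1 (MDA5), which binds long RNA duplexes, had 108 and 152 normalized counts in shIL1R cells at day 10, against 48.5 and 37.0 at day 0 (1.58 ± 0.32, limma adjusted p = 0.00132). OAS3, an interferon-induced enzyme switched on by RNA duplexes, had 204 and 79.0 in shScr cells at day 10, against 718 and 697 at day 0 (−2.47 ± 0.44, 0.000512). Its relative OAS2 had 32.4 and 68.8 in shIL1R cells at day 10, against 9.44 and 3.04 in shScr cells. Both of these shIL1R libraries met the filter of 10 normalized counts and neither shScr library did, so the difference of 2.89 ± 0.69 is a description without a p. It was 2.36 without replicate 2 of shIL1R day 10 and 2.21 without replicate 2 of shScr day 10. The OAS2 call was lost without either of those libraries, with a pseudocount of 0.5 and when only the compared groups were fitted. No other RNA sensor gene was called between the hairpins.

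NLRP3, the sensor of ion flux and membrane damage that nucleates the best known inflammasome, was low in all libraries. The shIL1R libraries gave 15.3 and 31.0 normalized counts on day 0, then 12.7 with 14.4 on day 4, then 16.8 with 37.2 on day 10. Those of shScr were 20.2 and 15.0 on day 0, then 23.8 with 34.1 on day 4, then 51.9 with 36.5 on day 10. Its libraries overlap at day 0 and day 10 between the hairpins. NLRP3 was higher at day 10 than at day 0 in shScr cells (1.27 ± 0.43, limma adjusted p = 0.024), which was not called without shScr day 0 replicate 2 (1.07, 0.129) or without shScr day 10 replicate 1 (1.02, 0.138). In shIL1R cells the same change was 0.19 ± 0.43 (0.718). At day 4 against day 0 it was −0.65 in shIL1R cells and 0.68 in shScr cells, and neither these nor their difference (−1.33 ± 0.61, adjusted p = 0.465) were called.

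PYCARD (ASC), the adaptor between sensor and caspase, was called in no comparison. It had 92.3 and 68.8 normalized counts in shIL1R cells at day 10, against 63.7 and 48.6 in shScr cells, where the difference was 0.51 ± 0.24 with a 95% interval of −0.018 to 1.04. Over all 12 libraries it lay between 48.6 and 92.3. Its exons overlap those of the antisense gene PYCARD-AS1 by 59.7% of their length, and since the strand setting of the counting is not given, reads of the pair cannot be told apart. PYCARD-AS1 itself was listed at 0 to 1.72.

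CASP1 (caspase-1) was lower at day 10 than at day 0 in shScr cells, while in shIL1R cells the change missed the threshold. Normalized counts in the shIL1R libraries were 614 and 798 on day 0, then 609 with 699.9 on day 4, then 516 with 569.98 on day 10. The shScr libraries gave 599 and 559.9 on day 0, then 469.9 with 485 on day 4, then 372 with 273 on day 10. On each day both shIL1R libraries lie above both shScr libraries, which 51.4% of tested genes did in either direction at day 0, 53.1% at day 4 and 49.0% at day 10.

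The CASP1 change at day 10 against day 0 was −0.37 ± 0.16 in shIL1R cells (limma adjusted p = 0.0697) and −0.86 ± 0.16 in shScr cells (0.000753), the second of which held in every setting tried. The shIL1R change ran from −0.56 to −0.18 and was called in 3 of 21 settings. Against day 4 the shScr change was −0.58 ± 0.16 (0.0138), a call that ended without either shScr day 4 library (0.0504 and 0.0682) or without shScr day 10 replicate 2 (0.128). The difference between shIL1R and shScr cells was 0.27 at day 0 (0.692), 0.45 at day 4 (0.188) and 0.76 ± 0.16 at day 10 (0.0182). The day 10 call was lost when only the compared groups were fitted (0.157), without replicate 2 of shScr day 10 (0.54, 0.171) and without replicate 2 of shIL1R day 10 (0.69, 0.0657). The interaction at day 10 was 0.49 ± 0.23 and not called (0.273), so a different change from day 0 under the hairpins was not shown. CASP1 shares 4.37% of its 50-base windows with CARD16, a neighbouring gene that encodes a CARD-only inhibitor of caspase-1, and reads from these windows could be counted for either gene or for neither.

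CASP4 (caspase-4), the most abundant of the 9 genes per length together with TMEM173, was higher after Ras induction under both hairpins. The shIL1R libraries gave 2704 and 3165 normalized counts on day 0, then 4186 with 4707 on day 4, then 4751 with 4414 on day 10. Those of shScr were 2493 and 2759 on day 0, then 3860.1 with 3829 on day 4, then 4423 with 4567 on day 10. All 8 libraries after induction lie above all 4 day 0 libraries, and at day 10 the hairpins overlap. The share of all tested genes that part in this way between days was not counted, so the separation is a description.

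At day 4 against day 0 CASP4 was higher by 0.60 ± 0.097 in shIL1R cells (limma adjusted p = 0.000754) and 0.55 ± 0.097 in shScr cells (0.00112). At day 10 against day 0 it was higher by 0.65 ± 0.097 in shIL1R cells (0.000163) and 0.78 ± 0.097 in shScr cells (3.55e-05). These 4 calls held in every setting tried, with adjusted p up to 0.0172. Between the hairpins at day 10 the difference was 0.027, with a 95% interval of −0.19 to 0.24, and the interaction was −0.13 with an interval of −0.43 to 0.17.

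The 2 caspases parted over time. The ratio of CASP4 to CASP1 in normalized counts within a library was 4.40 and 3.97 in shIL1R cells and 4.16 and 4.93 in shScr cells at day 0. It was 6.88 and 6.72 in shIL1R cells and 8.21 and 7.90 in shScr cells at day 4. At day 10 it was 9.21 and 7.74 in shIL1R cells and 11.9 and 16.7 in shScr cells. The shScr libraries lie above the shIL1R libraries at days 4 and 10 and overlap them at day 0, and the ratio is a description with no test of its own.

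**Figure D4:**
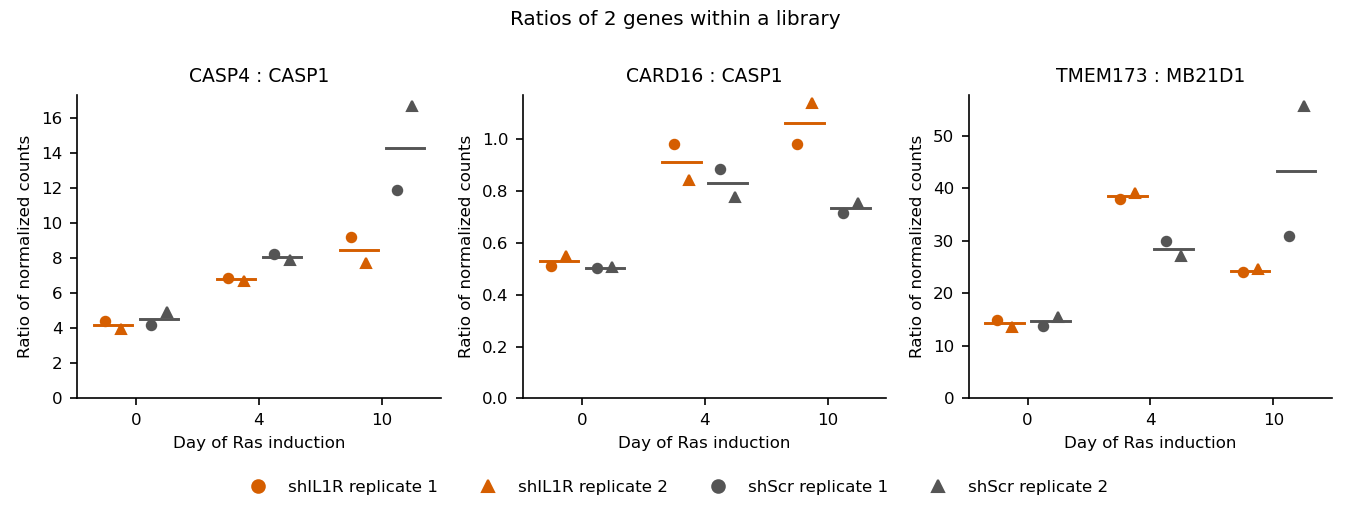
Ratio of normalized counts of 2 genes within each library (y axis, from 0) by day of Ras induction (x axis), for CASP4 over CASP1, CARD16 over CASP1 and TMEM173 over MB21D1. Points are libraries, orange for shIL1R and grey for shScr, circles for replicate 1 and triangles for replicate 2, with bars at means of 2 libraries. CASP4 over CASP1 reaches 9.21 and 7.74 in shIL1R cells and 11.9 and 16.7 in shScr cells at day 10.

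Of 17 further inflammasome and pyroptosis genes 10 were tested. In senescent against growing cells, 2 were higher and 4 lower in shIL1R cells (median −0.47), and 3 were higher and 5 lower in shScr cells (median −0.39), with 60.3% of all genes in shIL1R cells and 63.8% in shScr cells being called. Without replicate 2 of shIL1R day 10 the shIL1R counts were 1 and 5. TXNIP, an activator of NLRP3, was lower at day 10, with a log2 fold change of −4.20 ± 0.40 in shIL1R cells (limma adjusted p = 5.39e-06) and −4.33 ± 0.40 in shScr cells (3.36e-06). NEK7, which bridges NLRP3 subunits, was lower, with log2 fold changes of −0.89 ± 0.091 in shIL1R cells (9.42e-06) and −0.48 ± 0.091 in shScr cells (0.000803). Between shIL1R and shScr at day 10 NEK7 was called lower too (−0.34 ± 0.091, 0.042), but not in 12 of 21 settings. GSDMD, the pore-forming substrate of caspase-1 and caspase-4, had 386 and 568 normalized counts in shIL1R cells at day 10, against 380.0 and 265 in shScr cells (0.56 ± 0.19, not called, adjusted p = 0.0955).

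Between shIL1R and shScr cells at day 10, 1 of these genes was higher and 2 were lower (1 and 1 without replicate 2 of shIL1R day 10), beside 9.21% of all genes called. CARD16 had 507 and 650.1 normalized counts in shIL1R cells, against 267 and 207 in shScr cells (1.29 ± 0.18, limma adjusted p = 0.00346). It was lost as a call when only the compared groups were fitted (0.0612) and without replicate 2 of shScr day 10 (0.0503). The ratio of CARD16 to CASP1 within a library was 0.984 and 1.14 in shIL1R cells at day 10, against 0.717 and 0.756 in shScr cells, and 0.502 to 0.55 in all 4 day 0 libraries. IL1B, the cytokine that caspase-1 matures, had 12785 and 3527 in shIL1R cells, against 49464 and 57823 in shScr cells (−2.99 ± 0.53, adjusted p = 0.00843). The IL1B call was lost when only the compared groups were fitted (0.0709) and without replicate 2 of shScr day 10 (0.0898).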

How the data were processed

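The deposited table gives normalized counts, which are reads per gene scaled by the authors for library depth (a signal that need not be whole). Per the submitters' processing notes, TopHat, HTSeq, DESeq2 and the build hg19 were used, with no version named. Which annotation was counted, and whether strand was used, is not given in the sources used here, although the labels' protocols describe strand-specific libraries. The smallest value above 0 in a library was taken as the worth of 1 read, and 100% of values were then whole reads within 0.001. These reads served edgeR, DESeq2, read counts and exact 95% intervals, which cover counting error only.

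The main test was limma 3.58.1 (R 4.3.3) on log2(value + 1), fitted to the 6 group means of all 12 libraries with a trended eBayes (6 residual degrees of freedom and 4.98 prior ones). It was run on the 13924 genes with 10 or more normalized counts in 2 or more libraries. P-values were two-sided and adjusted over those genes. The 11 comparisons were days within a hairpin, hairpins within a day, and interactions at days 4 and 10. As alternatives, the pseudocount was set to 0.5 and 5, the filter was dropped or raised to 50, TMM rescaling was applied, only the compared groups were fitted, the replicate number was used as a block, edgeR 4.0.16 and DESeq2 1.42.0 were run, and single libraries were left out. List counts without replicate 2 of shIL1R day 10 were added after seeing the data.

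The sensor genes and gene lists, as well as the naming rule, were chosen with earlier results of these data known. The rule covers the 9 sensor genes, IL1R1, up to 4 called genes of largest change per list and comparison (the 2 largest where none was called; a subset is given), and the 3 genes most like a sensor gene spanning at least 2 log2 units. PTPRC, IFNB1, AIM2, NOD2, GSDMD, PYCARD-AS1 and single marker genes fall outside it and were chosen after their values were seen. Exon lengths and overlaps came from GENCODE genes on GRCh38, not the build of the counting, and promoters from RefSeq (GRCh38.p14). The code was tested on simulated data.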

Additional observations from a re-analysis of the deposited data

How the results depend on the processing

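Set beside the reported results of the 7 tested sensor genes, 1543 values under the alternatives kept their side of the threshold, 25 lost a call and 19 gained a call. Of values called in either fit, 0 changed direction. Some values called in neither did, among them NLRP3 in shIL1R cells at day 10 against day 0, which ran from −0.36 to 0.75. Depth limits TLR4 (1 read in all), TLR3, TLR2 and NLRP3, and each group has 2 libraries. The number of called sensor genes changed by over 1.5 times in these cases. When only the compared groups were fitted it was 3 in shScr cells at day 4 against day 0, 0 in shIL1R cells at day 10 against day 4 and 0 between hairpins at day 10. With a filter of 50 it was 3 in shScr cells at day 10 against day 0 and 1 between hairpins at day 10, since TLR2 and NLRP3 are then not tested. Without a filter it was 1 in shIL1R cells at day 10 against day 0, with DESeq2 it was 1 between hairpins at day 10, where TLR2 had no adjusted p, and with a pseudocount of 5 it was 1 (TLR2) for the interaction at day 10. Other causes were not tested.

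Over all genes, fitting only the compared groups called 1901 genes in shIL1R cells at day 10 against day 4 (5000 as reported), 2 between hairpins at day 0 (9), 1 at day 4 (39) and 73 at day 10 (1283), and 156 for the interaction at day 10 (336). DESeq2 called 136 between hairpins at day 0, 469 at day 4, 104 for the interaction at day 4 (4 as reported) and 802 for that at day 10. Without a filter these were 9 between hairpins at day 4, 0 for the interaction at day 4 and 216 for that at day 10, and with a filter of 50 it was 19 between hairpins at day 4. TMM rescaling moved the median gene by at most 0.0117 log2 units.

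Leaving out each library in turn gave 1 to 3 called sensor genes in shIL1R cells at day 4 and at day 10 against day 0, and 0 to 1 at day 10 against day 4. In shScr cells it gave 1 to 2, 4 to 5 and 1 to 4. Between hairpins it gave 0 to 3 at day 10, and 0 to 1 for the interaction at day 10. Over all genes it gave 3624 to 6682 in shIL1R cells at day 4 against day 0, 3345 to 5336 at day 10 against day 4, and 3332 to 6334 in shScr cells at day 4 against day 0. Between hairpins it gave 1 to 62 at day 0, 1 to 739 at day 4 and 115 (without shScr replicate 2 of that day) to 3521 (without shIL1R replicate 1) at day 10, with 0 to 26 and 42 to 2123 for the interactions.

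The labels do not say what the replicate numbers share, and they were not taken to pair the libraries: over 15 pairs of groups the correlation of same-numbered deviations ran from −0.102 to 0.231, with 4 above 0.1, the highest 2 of them within shIL1R (days 0 and 4, and 0.203 for days 4 and 10). IL1R1 was higher in replicate 1 than in replicate 2 of shIL1R on each day, at 731 and 378 normalized counts on day 0, 272 and 86.4 on day 4, and 295 and 279.9 on day 10. With the replicate number as a block, the count of called sensor genes at day 4 against day 0 in shIL1R cells was 3, TMEM173 being added (limma adjusted p = 0.0477), and no sensor gene lost its call.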

Other observations

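MX1, ISG15 and OAS1, genes known to respond to interferon, were chosen after their values were seen and stand for no wider list. MX1, which blocks virus replication, had 158 and 342 normalized counts in shIL1R cells at day 10, against 162 and 30.4 in shScr cells, and 14.2 to 24.8 in the 8 libraries of days 0 and 4. ISG15, a ubiquitin-like protein, had 439 and 940.2 in shIL1R cells at day 10, against 435 and 287 in shScr cells. OAS1 had 22.8 and 95.9 in shIL1R cells, against 23.6 and 0 in shScr cells, and was at 0 in all 4 day 0 libraries. For MX1, ISG15 and OAS1 replicate 1 of shIL1R and replicate 1 of shScr lie close to each other, while replicate 2 is higher in shIL1R and lower in shScr. MX1 was higher at day 10 than at day 0 in shIL1R cells (log2 fold change 3.62, limma adjusted p = 0.00039) and in shScr cells (1.71, 0.0291), the second of which was lost without replicate 1 of shScr day 10 (0.52, 0.341), without either shScr day 0 library (0.0578 and 0.138) and with no filter (0.0505). None of the 3 was called between the hairpins at day 10.

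Of 6 genes of the NOD receptors, which sense fragments of bacterial cell wall, 5 were tested. In senescent against growing cells, 3 were higher and 1 lower in shIL1R cells, and likewise in shScr cells, beside 60.3% of all genes called in shIL1R cells and 63.8% in shScr cells. NLRC5 in shScr cells, among the 3 higher, lost its call in 9 of 21 settings. The receptor NOD1 was lower, with log2 fold changes of −2.12 ± 0.24 in shIL1R cells (limma adjusted p = 1.81e-05) and −2.21 ± 0.24 in shScr cells (1.1e-05), while its kinase RIPK2 was higher by 0.81 ± 0.21 in shIL1R cells (0.00527, but 0.0519 when only the compared groups were fitted) and 1.35 ± 0.21 in shScr cells (0.000154). The related receptor NOD2 had 1 read in the study.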
